A study of Homo sapiens with 6 samples.

Results

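Some open chromatin lies in stretches of the genome with no annotated gene nearby. Such stretches, often called gene deserts, can hold distal regulatory elements that act on genes far along the chromosome, and many of them flank genes of development, cell adhesion and the nervous system. They are also often packed into late-replicating, compact chromatin near the nuclear periphery. HNRNPU, also known as SAF-A, is an abundant nuclear protein that binds RNA and DNA and was described as a component of the nuclear matrix. Here, the summits of open chromatin more than 50 kb from any gene, of any biotype, were taken from 6 ATAC-seq libraries of the human pluripotent line H1 and compared between knockdown of HNRNPU and a control. They are called far summits below. There were 15945 of them among 356720 summits in all. Summits of the different libraries within 250 bp of each other were merged into loci, which gave 6499 far loci among 123131 loci, and the remaining 116632 loci lay inside a gene or within 50 kb of one.

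ATAC-seq marks open chromatin through the cuts of a transposase, and a summit is the position of strongest signal in a peak. H1 is an established human embryonic stem cell line, grown here on Matrigel in mTeSR1 medium without differentiation. Cells of all 3 groups received a short hairpin RNA by virus and were selected with puromycin. The hairpins were shHNRNPU #1, shHNRNPU #2 and, as the control, shLUC against luciferase, with 2 libraries each called repeat 1 and repeat 2. Nothing in the labels says that the repeats came from separate cultures, so the spread between them may be technical. Each hairpin is a single construct, and shLUC is the only control. The lists are of peaks only: the knockdown is not measured by them, read depth is unknown, and absence means only that no peak was called there. Lists held from 52168 to 63519 summits. Summits lay within 2000 bp of an end of each of the pluripotency genes POU5F1, SOX2, NANOG, LIN28A and DNMT3B in all 6 libraries. Of genes of other lineages, ALB had none in any library, GATA4 had one in 1 library, and GATA6, TBXT and PAX6 had summits in all 6.

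Far summits made up 4.04% and 4.31% of the summits of the shHNRNPU #1 libraries, in repeats 1 and 2, and 4.47% and 3.76% of those of the shHNRNPU #2 libraries. In the shLUC libraries they made up 5.12% and 5.00%. All 4 knockdown libraries were below both controls, and the nearest pair did not touch: the 95% Wilson interval reached from 4.30% to 4.64% in shHNRNPU #2 repeat 1 and from 4.83% to 5.18% in shLUC repeat 2. These intervals cover counting error only. The knockdown mean was 4.14% ± 0.313 (SD, n = 4), the control mean was 5.06% ± 0.0865 (SD, n = 2), and they had a difference of -0.922 percentage points (two-sided exact permutation test, p = 0.133). With 4 libraries against 2 there are 15 ways to choose the controls, and 0.133 is the smallest p that this design allows, so no comparison of library means here could pass 0.05. The difference was -0.891 points for shHNRNPU #1 and -0.953 points for shHNRNPU #2.

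**Figure D1:**
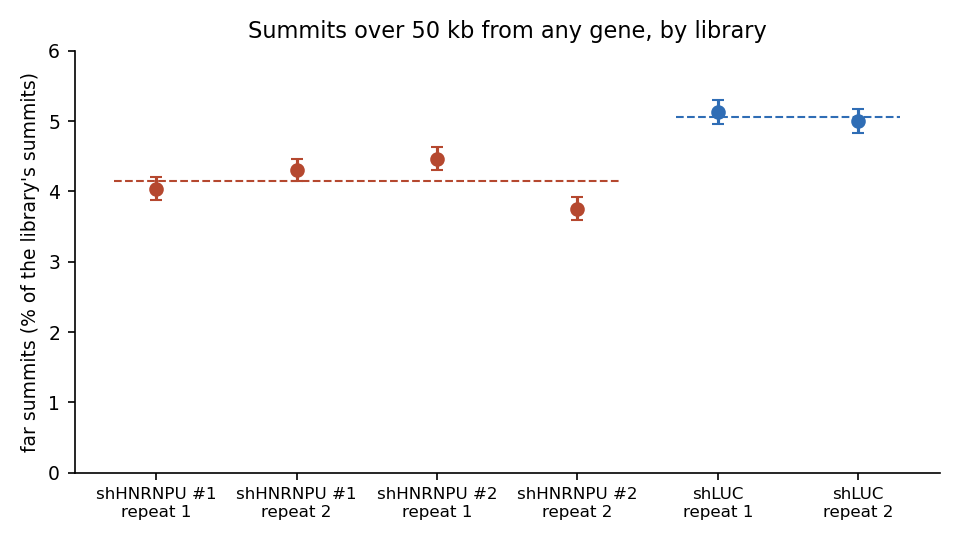
Share of each library's summits that lie over 50 kb from any gene, in percent on a linear axis from 0, with 95% Wilson intervals and group means as dashed lines. The 4 shHNRNPU libraries (red) sit between 3.76% and 4.47% and the 2 shLUC libraries (blue) at 5.00% and 5.12%.

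In numbers of summits, the shHNRNPU libraries held 2384, 2736, 2609 and 1959 far summits and the shLUC libraries 3187 and 3070. The means were 2422 ± 341 (SD, n = 4) and 3129 ± 82.7 (SD, n = 2), a ratio of 0.774 and a difference of -706.5 (two-sided exact permutation test, p = 0.133). With a minimum score of 5 the difference in number was -276.5 (two-sided exact permutation test, p = 0.267), where the groups no longer separated, and with lists of one size it was -328.75 (two-sided exact permutation test, p = 0.133). As a ratio the whole lists differed less, at 0.943, with a mean difference of -3493 summits (p = 0.4, two-sided exact permutation test). Among the knockdown libraries the shortest list, shHNRNPU #2 repeat 2, also had the lowest far share. When each list was shortened to its best-scored summits so that all were of one size, the difference in share was -0.630 points (two-sided exact permutation test, p = 0.133), and with a minimum score of 5 it was -0.566 points (two-sided exact permutation test, p = 0.133).

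The difference was also present at shorter distances. Summits between 10 and 50 kb from a gene were 11.2% of the shHNRNPU lists and 12.1% of the shLUC lists, -0.883 points. Between 50 and 100 kb the shares were 2.67% ± 0.201 (SD, n = 4) and 3.18% ± 0.0721 (SD, n = 2), and between 100 and 250 kb they were 1.29% ± 0.111 and 1.62% ± 0.0294. Between 250 and 500 kb they were 0.154% ± 0.00843 and 0.227% ± 0.00556. In each of these 4 bands all 4 knockdown libraries were below both controls. Summits inside genes had the opposite order, with 60.6% ± 0.750 and 59.2% ± 0.434, 1.41 points higher with shHNRNPU. For these 5 of 7 bands p was 0.133 (two-sided exact permutation test), or 0.187 after Benjamini-Hochberg adjustment over the 7 bands. Summits outside genes but within 10 kb of one made up 24.0% and 23.6% (two-sided exact permutation test, p = 0.8). Over 500 kb from a gene the 104 summits gave 0.0292% in both groups. Since the shares of a list sum to a whole, the far share was also taken over the summits outside genes, where it differed by -1.89 points, and over those more than 10 kb from a gene, where it differed by -2.57 points (p = 0.133 in both cases, two-sided exact permutation test).

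The territory more than 50 kb from any gene came to 493 Mb in 2948 gene-free intervals, each a stretch between neighbouring genes over 100 kb apart. Of these, 29 intervals were longer than 2 Mb, a limit chosen after the data were seen. They hold 203 Mb and are for the most part centromeres and blocks of heterochromatin, assembly gaps included. They held only 52 far loci, and 18 of the 29 held none. The other 2919 intervals had a median length of 158 kb, the longest being 1278 kb, and together held 290 Mb of far territory and 6447 far loci. A count of 1081 of them held no far locus and 569 held 1. Outside the long intervals there were 22.3 far loci per Mb, against 44.96 loci per Mb in the territory within genes or near them, a ratio of 2.02. The far territory was 10.0% of the whole, and far loci were 5.24% of loci outside the long intervals. Far loci were also more scattered: 48.3% had another locus within 10 kb, against 69.0% of the other loci.

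By library, the shHNRNPU libraries had 8.14, 9.34, 8.92 and 6.65 far summits per Mb outside the long intervals and the shLUC libraries had 10.9 and 10.5. In the rest of the genome they had 21.8, 23.4, 21.5 and 19.4 with shHNRNPU against 22.7 and 22.5 with shLUC. The groups thus did not overlap in the far territory but did in the rest, where shHNRNPU #1 repeat 2 had the highest density of all 6 libraries.

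The chromosomes differed widely in their far loci. Far loci made up 9.91% of the loci of chromosome 13, 9.01% of chromosome 4, 8.04% of chromosome 18 and 7.95% of chromosome 5, but 0.842% of chromosome 22 and 0.625% of the gene-dense chromosome 19. Per Mb of far territory the autosomes ranged from 11.9 far loci on chromosome 21 to 33.5 on chromosome 19, and the X chromosome had 7.998, against 20.7 other loci per Mb on X. The far share of a chromosome's summits was lower on average with shHNRNPU on 23 of 24 chromosomes, the exception being chromosome 22. On 19 of 24 chromosomes, 79.2%, all 4 knockdown libraries were below both controls, and on none were all 4 above. For the share of summits outside genes but within 10 kb of one, the same count was 4.17% of chromosomes lower and 12.5% higher. That band did not differ between groups over the whole lists (two-sided exact permutation test, p = 0.8). No such count is given for the band from 10 to 50 kb, where all 4 knockdown libraries were also below both controls. The chromosomes come from the same libraries, so they are not separate observations. On chromosome 13 the far share was 8.42% ± 0.704 (SD, n = 4) with shHNRNPU and a mean of 9.90% with shLUC, and on chromosome 18 it was 6.92% ± 0.641 (SD, n = 4) and 8.44%. No single chromosome passed a test (two-sided exact permutation test, smallest Benjamini-Hochberg adjusted p = 0.168 over 24 chromosomes). How the far summits of a library were spread over chromosomes differed little. All 4 knockdown libraries were below both controls for 2 chromosomes and above for 3, and the smallest adjusted p was 0.64 (two-sided exact permutation test).

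**Figure D2:**
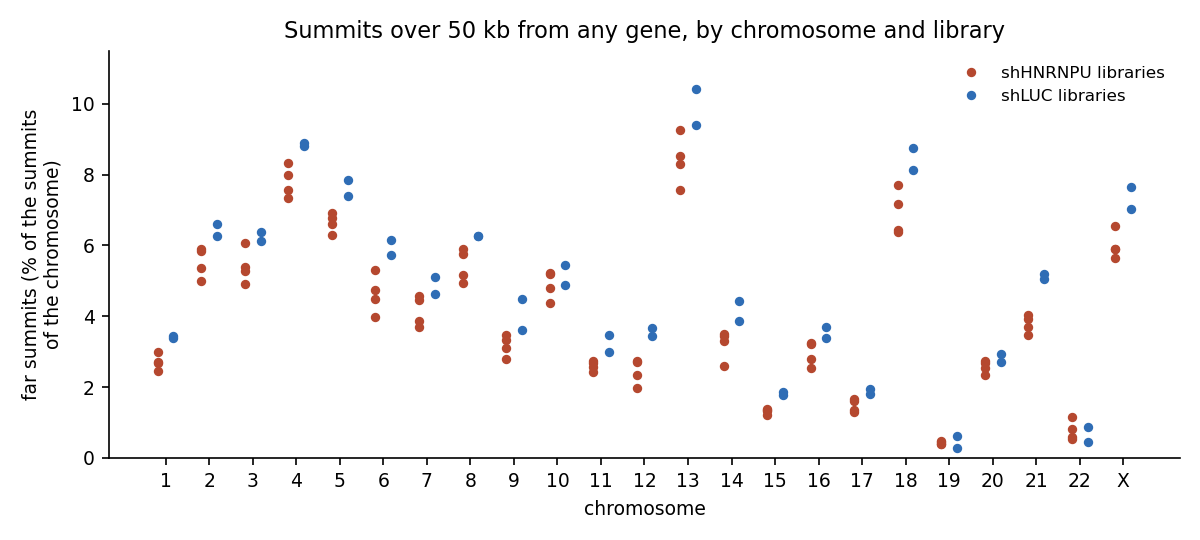
Far summits as a percent of all summits on the same chromosome, for each library, on a linear axis from 0, with shHNRNPU libraries in red and shLUC libraries in blue; chromosome Y, with 118 loci in all, is not drawn. Chromosomes 13, 4 and 18 have the highest shares and 19 and 22 the lowest, and on most chromosomes the blue points lie above all red ones.

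The far loci lay between 1838 protein-coding genes, taking the nearest on each side. The gene flanking most of them was CSMD3, which encodes a very large transmembrane protein of neurons, with 67 far loci. The shHNRNPU libraries held 25, 28, 23 and 15 of the loci flanked by CSMD3 and the shLUC libraries 34 and 35. Next came MANEA, a mannosidase of the Golgi, with 55, and EPHA7, a receptor for ephrins in axon guidance, with 53. AGA, a lysosomal enzyme, PCDH10, a protocadherin, TENM3, a teneurin in the wiring of neurons, and TRPS1, a zinc finger repressor of skeletal development, each flanked 50. At PCDH10 the knockdown libraries held 20, 23, 19 and 19 of the loci and the controls 32 and 25, and at TRPS1 17, 23, 19 and 9 against 26 and 26. At AGA and TENM3, which flank the same loci, the knockdown libraries held 12, 20, 28 and 17 and both controls 20, so that the groups overlapped. Of the 429 protein-coding genes flanking at least 10 far loci outside the long intervals, all 4 knockdown libraries held fewer of the loci than both controls at 104 (24.2%), CSMD3, PCDH10 and TRPS1 among them, and more at 3 (0.699%). Neighbouring genes share loci, so these are not separate observations. Each knockdown library also held fewer far loci in all than both controls. No such count is given for genes without far loci. Among 2810 windows of 500 kb with no far locus, a different unit, 13.7% had fewer summits in all 4 knockdown libraries and 2.95% had more.

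Genes of cell adhesion and the synapse, a list of symbols such as the cadherin, protocadherin, contactin and teneurin families, flanked 1121 far loci outside the long intervals. This was 17.4% of far loci but 4.07% of the other loci, and these genes flank 19.9% of the far territory, so the high share was also that of the territory. They had 19.5 far loci per Mb, 136 were in all 6 libraries, and 33 of the 314 held by both controls (10.5%) were absent from all 4 knockdown libraries, beside 11.4% over all far loci and 5.68% over all loci. Families of developmental transcription factors, such as SOX, FOX, IRX and TBX, flanked 442 far loci, 6.86% of them against 4.67% of other loci and 6.30% of the far territory. Of these, 59 were in all 6 libraries, and 17 of the 123 held by both controls (13.8%) were absent after knockdown, beside the same 11.4% and 5.68%. Olfactory receptors flanked 2 far loci, 0.0310% of them, though 0.545% of the far territory lies beside them.

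The gene-free interval with most far loci was chr4:178817381-180095497, 1278 kb between AGA and TENM3, with 34 loci. Its summits numbered 11, 14, 17 and 11 with shHNRNPU and 13 and 14 with shLUC, which overlap. Second was chr6:94573260-95504121 between EPHA7 and MANEA with 28 loci and with 11, 12, 11 and 4 summits against 13 and 16. A neighbouring interval, chr6:93790404-94442797, also between EPHA7 and MANEA, held 22 loci and had 4, 4, 4 and 3 summits against 7 and 12. In both of these intervals all 4 knockdown libraries were below both controls. An interval at chr6:102454067-103535048, between the kainate receptor gene GRIK2 and the ubiquitin ligase gene HACE1, had 25 loci and 8, 8, 11 and 5 summits against 16 and 10, where the groups overlapped. At chr2:117139776-117754092, between the potassium channel subunit gene DPP10 and the RNA helicase gene DDX18, 26 loci gave 8, 14, 10 and 6 summits against 9 and 9. At chr13:55182737-55996488, between LOC124903233 and PRR20A, 24 loci gave 10, 12, 11 and 12 against 11 and 12. Over the 93 intervals up to 2 Mb long with at least 10 far loci, 19 (20.4%) had fewer summits in all 4 knockdown libraries than in both controls, and 0 had more. Among 2810 windows of 500 kb with no far locus and with 10 to 34 loci, the shares were 13.7% and 2.95%.

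Far summits scored low. The score is the -log10 of the q-value of a peak within its own library and is not comparable between libraries, so summits were ranked within each list as percentiles. The median score of far summits was 6.26, 5.86, 5.27 and 6.73 in the shHNRNPU libraries and 6.10 and 5.28 in the shLUC libraries, below the median of all summits in each (from 6.91 to 8.43). Their median percentile was 41.1, 39.8, 38.7 and 40.8 with shHNRNPU and 40.4 and 37.8 with shLUC. Few far summits were among the best-scored 10% of their library: 2.10%, 2.05%, 2.30% and 2.40% with shHNRNPU and 3.64% and 2.93% with shLUC. In the lowest 25% were 29.6%, 30.2%, 29.97% and 26.4% with shHNRNPU and 35.6% and 38.5% with shLUC. For both shares all 4 knockdown libraries were below both controls, a difference that was not tested. The controls thus had larger shares of their far summits at both ends, among them more of the weakest calls. The mean difference in the median percentile was 0.990 points (two-sided exact permutation test, p = 0.4). It turned negative with a minimum score of 5, with lists of one size and without shLUC repeat 2, so no direction can be given for the median.

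The far loci with the highest scores were few and lay mostly in the long intervals. Of the 10 loci with the highest lowest percentile over all 6 libraries, 8 lay there, on chromosomes 1, 3, 16 and 17. The strongest, at chr3:93470571, had scores of 285, 385, 544 and 516 with shHNRNPU and 753 and 645 with shLUC, and it held the highest far score in every library. It lies 402 kb from PROS1, which encodes the anticoagulant protein S. At chr17:26603917 the scores were 188, 181, 200 and 215 against 170 and 194, and at chr17:25920210 they were 132, 170, 151 and 138 against 140 and 167. Scores ranged over the libraries from 85.5 to 153 at chr1:125180211, from 59.96 to 97.4 at chr16:46390696 and from 48.8 to 83.3 at chr1:125183798. They ranged from 42.6 to 76.5 at chr17:26885480 and from 39.6 to 55.5 at chr17:26881380. By percentile within a list, the groups overlapped at each of the 8 loci. The interval of 4.28 Mb on chromosome 17 that holds it contained 10 far loci, 9 of them in all 6 libraries, and the 21.7 Mb interval on chromosome 1 contained 5, with 3 in all 6. Of the 6 loci in all libraries that lay farthest from any gene, the 5 on chromosomes 1 and 17 were in long intervals too, at 3612, 3608, 1907, 1592 and 1061 kb. How reads in such repeat-rich blocks were filtered is not given in the sources used here, and their part in these scores was not tested. Leaving out all long intervals changed the far share difference to -0.918 points.

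Of the loci outside the long intervals, the strongest was at chr21:7926405 on the short arm of chromosome 21, with scores of 101, 105, 84.6 and 151 against 106 and 161. The next, at chr4:132495573, lay 654 kb from PCDH10 and had scores of 59.3, 45.1, 50.6 and 54.1 against 56.5 and 56.6. A locus at chr14:87150150, 783 kb from GALC, which encodes the enzyme that breaks down galactocerebroside, had 43.1, 43.4, 41.1 and 48.5 against 55.8 and 45.6. One at chr3:75850488, 56.2 kb from the axon guidance receptor gene ROBO2, had 40.1, 43.1, 38.8 and 41.0 against 34.3 and 31.1. These 4 loci had percentiles of 92.3 or higher in every library. Of the far loci held by all 6 libraries outside the long intervals, the one farthest from any gene was chr4:179465551, 630 kb from the nearest and about midway between AGA and TENM3. Its scores were 11.9, 19.3, 19.6 and 20.3 against 20.0 and 33.3. The loci outside the long intervals were picked out after their values were seen.

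Most far loci were not held by all libraries. Of the 6499, 3020 (46.5%) were held by 1 library alone and 823 (12.7%) by all 6, while of the other loci 37.5% were in 1 library and 21.2% in all 6, a description with no test. Held by 2, 3, 4 and 5 libraries were 16.4%, 10.6%, 7.34% and 6.55%. Loci inside genes were in all 6 libraries in 18.5% of cases and loci within 10 kb of a gene in 33.5%, but beyond 10 kb the share was 15.3%, 12.6%, 12.6% and 13.8% in the successive bands up to 500 kb. On either side of the cut, the 860 loci at 45 to 50 kb were in all 6 libraries in 13.6% of cases and the 720 at 50 to 55 kb in 14.4%. The best percentile of a far locus over the libraries that held it had a median of 15.1 for loci of 1 library and 80.2 for those of all 6.

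**Figure D3:**
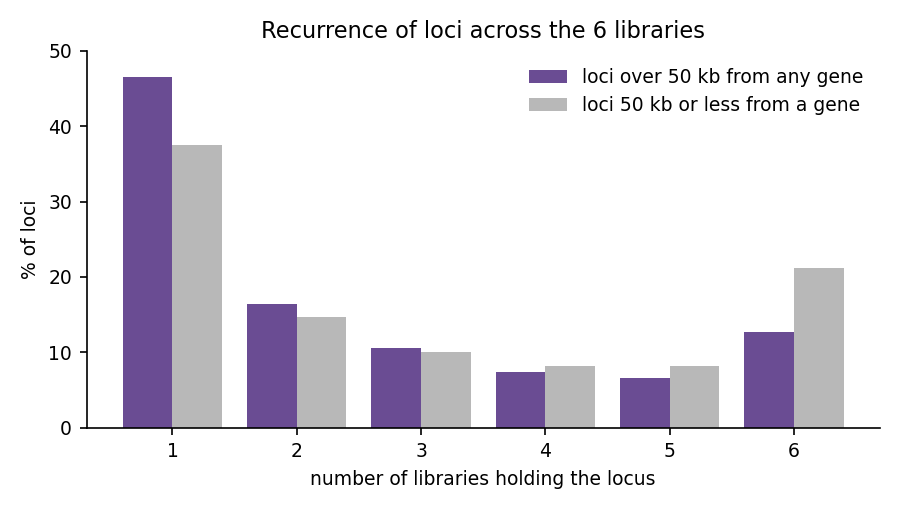
Percent of loci held by 1 to 6 libraries, for far loci (purple, n = 6499) and for the other loci (grey, n = 116632), on a linear axis from 0. A larger share of far loci is in 1 library (46.5% against 37.5%) and a smaller share in all 6 (12.7% against 21.2%).

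The loci held by 1 library alone were not evenly spread over the groups. They made up 14.9%, 18.1%, 17.1% and 9.10% of the far loci of the shHNRNPU libraries and 24.1% and 23.9% of those of the shLUC libraries, with means of 14.8% ± 4.03 (SD, n = 4) and 24.0% ± 0.195 (SD, n = 2) (two-sided exact permutation test, p = 0.133). Over all loci these shares were 11.6%, 14.0%, 12.1% and 8.54% against 15.1% and 15.01%, in the same order. Of the 2656 far loci held by 2 to 5 libraries, the knockdown libraries held 46.7%, 54.5%, 52.1% and 37.5% and the controls 61.2% and 58.0%. For other loci of 2 to 5 libraries the groups overlapped, at 55.2%, 59.6%, 53.0% and 46.6% against 55.4% and 54.3%.

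Overlap between lists of far loci was higher as a Jaccard index, but not in number, for pairs of knockdown libraries than for a knockdown with a control library. The Jaccard index, shared far loci over far loci in either library, averaged 0.418 (0.409 to 0.442) for the 4 pairs of shHNRNPU #1 with #2. It was 0.407 (0.402 to 0.411) for the 3 pairs with the same hairpin, the shLUC pair included, and 0.367 (0.354 to 0.376) for the 8 pairs of a knockdown with a control library. The range for knockdown with control did not overlap the others. In number, knockdown pairs shared from 1350 to 1591 far loci and mixed pairs from 1368 to 1636, the control lists being longer. The shared loci of mixed pairs were 57.97% to 68.7% of the far loci of the knockdown library and 42.4% to 51.8% of those of the control. For pairs of knockdown libraries they were 49.9% to 69.2% of either. Pairs of shHNRNPU libraries exceeded mixed pairs by 0.0479 (two-sided exact permutation test, p = 0.133). Other loci had higher indices in the same order, 0.514, 0.510 and 0.482.

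Loci were called lost if both shLUC libraries and none of the 4 shHNRNPU libraries held them, and gained if all 4 shHNRNPU libraries and neither control did. Of 1815 far loci held by both controls, 207 (11.4%, 95% Wilson interval 10.0% to 12.9%) were lost, while over all loci the share was 5.68%. Of 983 far loci held by all 4 knockdown libraries, 33 (3.36%, 2.40% to 4.68%) were gained, close to the 3.59% over all loci. Both intervals cover counting error over loci only and not the spread between libraries. There were 6.27 lost far loci for each gained one and 2.19 over all loci. A lost locus is held by 2 libraries and a gained one by 4, so this ratio also depends on recurrence, which was lower at far loci. Among loci held by exactly 2 libraries, the shLUC pair held 19.4% of far and 12.6% of other loci. Among loci held by exactly 4, the 4 shHNRNPU libraries held 6.92% of far and 10.9% of other loci. For each hairpin alone the lost share was again above that over all loci, and so was the gained share. With shHNRNPU #1, 348 far loci (19.2%) were lost beside 10.4% over all loci, and 179 (11.8%) were gained beside 10.5%, while over all loci more were gained (4463) than lost (4343). With shHNRNPU #2, 369 (20.3%) were lost beside 11.9%, and 127 (9.41%) were gained beside 7.79%. The 2 hairpins share their controls, so these counts are not independent. Leaving out a library means that fewer lists must hold or lack a locus. Without shLUC repeat 1 or repeat 2, 947 or 978 far loci were lost, 30.6% or 30.4% beside 18.8% or 18.9% over all loci, and gained far loci numbered from 56 to 104 without any 1 of the 6 libraries. As a share these were 5.11% to 10.6%, beside 4.84% to 9.62% over all loci. Without shHNRNPU #2 repeat 2 the gained share was 7.39% beside 5.80%, and without shLUC repeat 2 it was 10.6% beside 9.62%.

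The lost share was lowest within 10 kb of a gene and higher from 10 kb up to 500 kb. It was 5.94% inside genes, 3.00% within 10 kb, 8.48% from 10 to 50 kb, 10.2% from 50 to 100 kb, 13.4% from 100 to 250 kb and 14.6% from 250 to 500 kb, the last of only 82 loci. Over 500 kb, 1 of 9 loci was lost (11.1%). The gained share was 4.09%, 2.49%, 4.21%, 3.498%, 2.65% and 6.98% in the same bands, and none of the 9 loci over 500 kb held by all 4 knockdown libraries was gained. At the cut itself the lost share was low on both sides, with 13 of 227 loci (5.73%) at 45 to 50 kb and 11 of 185 (5.95%) at 50 to 55 kb. Lost far loci had weak peaks: the median of their best percentile over 2 libraries was 41.7, where all far loci held by exactly 2 libraries had 34.4. For gained far loci, with the best of 4 libraries, it was 50.4, where all far loci held by exactly 4 had 55.2. A best of 2 cannot be set against a best of 4. For 19 of the 207 (9.18%) a knockdown library had a summit within 1000 bp. That left 188, beside 1875 of the 2372 lost over all loci. The nearest knockdown summit was at a median of 24.1 kb. Of the 33 gained loci 13 (39.4%) had a control summit within 1000 bp. That left 20, beside 724 of the 1084 gained over all loci. The nearest control summit was at a median of 8.02 kb. Far loci also had fewer neighbouring loci than the others. Lost loci did not cluster in few places. They lay in 182 gene-free intervals, of which 22 held more than 1 and none more than 3, and the gained loci lay in 33 intervals.

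**Figure D4:**
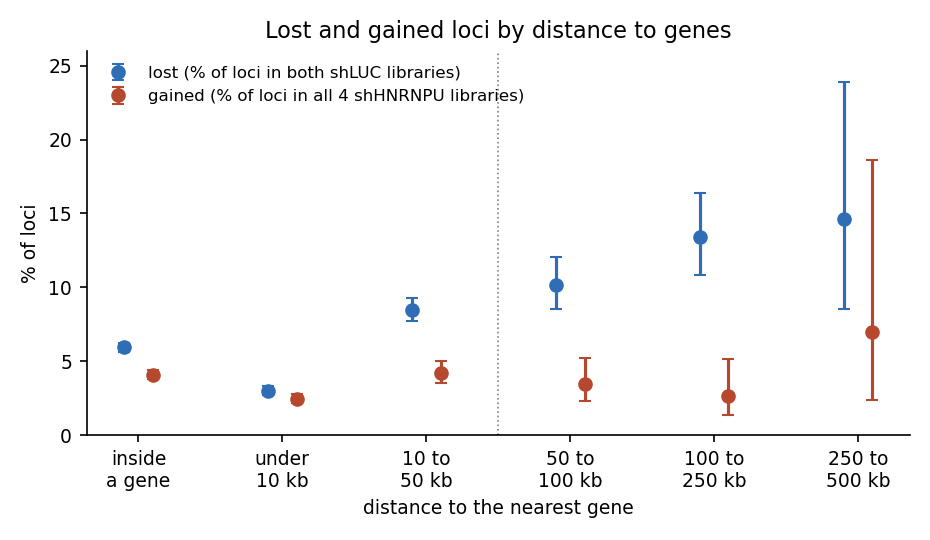
Percent of loci lost (blue, of loci in both shLUC libraries) and gained (red, of loci in all 4 shHNRNPU libraries) by distance to the nearest gene. Bars are 95% Wilson intervals over loci, which do not cover the spread between libraries, and the dotted line marks 50 kb. The lost share goes from 3.00% within 10 kb of a gene to 13.4% at 100 to 250 kb, and the gained share stays between 2.49% and 6.98%; the few loci over 500 kb are not drawn.

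The lost far loci with the strongest control peaks were named by the lower of their control percentiles. The first, chr12:71023327, lies between PTPRR, which encodes a receptor-type tyrosine phosphatase, and TSPAN8, a tetraspanin, 103 and 102 kb from them. It had scores of 15.3 and 14.6 with shLUC, at percentiles of 75.2 and 75.7, and the nearest knockdown summit was 1.76 kb away. At chr3:96101157, 713 kb from the ephrin receptor gene EPHA6, the control scores were 14.0 and 12.6, and no knockdown library had a summit within 174 kb. A locus at chr5:35370612, 140 kb from the prolactin receptor gene PRLR, had 16.3 and 12.0. At chr2:212726644, 188 kb from ERBB4, which encodes a neuregulin receptor, and 273 kb from IKZF2, which encodes the transcription factor Helios, they were 14.2 and 10.4. A locus at chr5:164148521, 629 kb from MAT2B, had 11.4 and 9.81, and one at chr12:35614989, within a long interval, had 11.8 and 11.4. The lowest control percentile among these 6 loci was 62.6.

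The gained far loci named by the same rule had lowest percentiles from 30.6 to 43.3 over their 4 libraries, which cannot be set against a lowest of 2. At chr15:46171421, 480 kb from the sulfide oxidation gene SQOR and 1013 kb from the semaphorin gene SEMA6D, the knockdown scores were 9.82, 6.31, 11.2 and 8.63, and the nearest control summit was 19.6 kb away. At chr4:175387239, 246 kb from GPM6A, a membrane glycoprotein of neurons, they were 6.56, 8.04, 7.10 and 7.11, but a control summit lay 361 bp away. A locus at chr10:53744858, 57.9 kb from the protocadherin gene PCDH15, had 11.0, 7.34, 6.71 and 6.99, and one at chr2:228425816, between SPHKAP and PID1, had 12.1, 10.6, 7.10 and 6.73. At chr11:121800994, 167 kb from the sorting receptor gene SORL1, scores were 11.2, 11.0, 5.39 and 10.5, with a control summit 305 bp away. At chr6:14799189, 447 kb from JARID2, which encodes a partner of Polycomb repressive complex 2, they were 12.8, 4.75, 5.06 and 14.8, and a control summit lay 856 bp away. So 3 of the 6 strongest gained loci had a control summit between 250 and 1000 bp off.

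At the 823 far loci that all 6 libraries held, the rank by score could be followed without loss of a call. The shift was the mean percentile of the 4 knockdown libraries minus the mean of both controls. Its median was -4.48 percentile points at far loci and -0.229 at the other loci held by all 6, and it was negative at 66.1% and 52.0% of them. The median was -3.96 with shHNRNPU #1 and -5.29 with shHNRNPU #2, where other loci had 0.463 and -0.817. Taken library by library against the control mean, the median shift at far loci was -4.37, -1.74, -2.81 and -5.49, and shLUC repeat 2 minus repeat 1 gave -1.45. The smallest of the knockdown values was near the difference between the control repeats. That difference is between 2 single libraries and not against a mean, so the measures are not alike.

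As library values, the median percentile of these 823 loci was 66.0, 68.7, 67.8 and 63.3 with shHNRNPU and 72.2 and 70.8 with shLUC. The means were 66.5 ± 2.37 (SD, n = 4) and 71.5 ± 0.936 (SD, n = 2), a difference of -5.05 points, and the groups did not overlap (two-sided exact permutation test, p = 0.133). Set against the other loci held by all 6 in the same library, the median of far loci differed by -10.2, -9.15, -8.25 and -9.78 points with shHNRNPU and by -4.79 and -5.96 points with shLUC. That gap differed between groups by -3.98 points (two-sided exact permutation test, p = 0.133). The other loci themselves differed by -1.07 points (two-sided exact permutation test, p = 0.667).

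The shift was close to 0 near genes and negative from 10 to 500 kb. Its median was -0.0641 inside genes, -0.151 within 10 kb, -3.15 from 10 to 50 kb, -4.27 from 50 to 100 kb, -4.92 from 100 to 250 kb and -4.15 over the 35 loci from 250 to 500 kb. Over the 7 loci more than 500 kb from a gene it was -0.0024, with -0.0029 for shHNRNPU #1 and 1.19 for shHNRNPU #2. At 45 to 50 kb, just outside the cut, it was -6.70, and just inside it was -4.31. The shift was also present at matched levels: for loci with a mean percentile between 25 and 50 the medians were -3.04 for far loci and -0.410 for other loci, between 50 and 75 they were -5.24 and -0.851, between 75 and 90 they were -5.71 and -0.330, and over 90 they were -0.948 and -0.0883. All 4 knockdown percentiles lay below both control percentiles at 181 of the 823 far loci (22.0%), beside 13.9% over all loci held by all 6, and above both at 59 (7.17%), beside 10.9%.

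**Figure D5:**
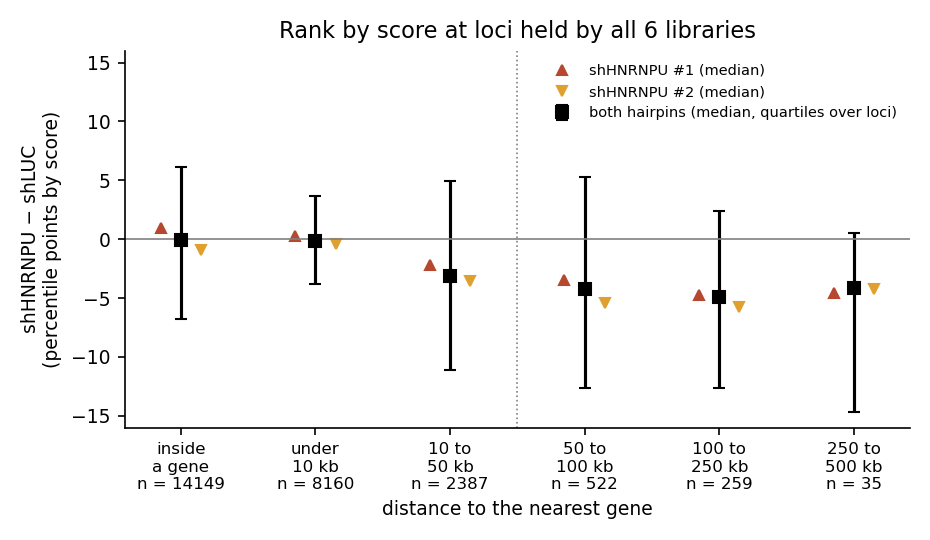
Difference in percentile by score, shHNRNPU minus shLUC, at loci held by all 6 libraries, by distance to the nearest gene. Squares are medians over loci with bars for the quartiles, triangles are the medians of each hairpin, and the dotted line marks 50 kb; medians lie near 0 up to 10 kb and between -3.15 and -4.92 from 10 to 500 kb, and the 7 loci over 500 kb are not drawn.

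Some far loci with a large shift, picked after their values were seen, show its extremes and not its usual size. Over the 823 far loci the median was -4.48, with quartiles of -12.6 and 4.15. At chr18:25675650, 323 kb from the zinc finger gene ZNF521 and 341 kb from SS18, which encodes a subunit of BAF chromatin remodellers, the scores were 5.18, 5.62, 8.03 and 7.16 with shHNRNPU and 19.7 and 26.2 with shLUC. The percentiles there were 32.4, 38.3, 56.4 and 43.4 against 82.2 and 89.5. At chr16:63978455, in the desert between the cadherin genes CDH8 and CDH11, they were 4.18, 3.28, 3.19 and 4.64 against 12.3 and 8.14. At chr2:209307693, 116 kb from MAP2, which encodes a microtubule protein of dendrites, they were 2.62, 5.66, 3.27 and 2.69 against 7.29 and 9.81. The opposite was seen at chr9:86885441, 58.9 kb from the hedgehog co-receptor gene GAS1, with 12.1, 16.1, 13.1 and 10.6 against 6.37 and 2.92. It was also seen at chr3:18693781, 248 kb from the chromatin organizer gene SATB1, with 12.0, 21.6, 11.4 and 15.1 against 7.18 and 4.78, and at chr1:214187380, 146 kb from the homeobox gene PROX1, with 10.8, 11.6, 7.19 and 7.50 against 5.34 and 2.89. The percentiles of the groups did not overlap at these loci, but the loci were picked for a large shift, so this is no separate result. Scores of different libraries are not comparable.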

How the data were processed

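Each library has its own deposited summit list, so peaks were called separately and reads were not pooled. From the layout and the values, the deposited score is the −log10 q-value of the peak in its own library, and it starts between 1.30 and 1.31. The submitters' processing notes name cutadapt, Bowtie2, SAMtools, MACS2, deepTools and hg38; versions, settings and read filters are not given in the sources used here. No genome sequence was used here, so no sequence of a locus is shown.

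Groups and repeats were taken from the sample titles. Distances were measured to 59679 genes of all biotypes on chromosomes 1 to 22, X and Y in RefSeq GRCh38.p14. Loci were built from the summit of highest percentile downwards, each absorbing summits within 250 bp of it. Holding a locus required a summit of that library no more than 250 bp from its centre. Means were compared by exact permutation over the 15 choices of 2 controls, doubling the smaller tail. Scripts were tested on simulated data and run with pandas 2.3.3, numpy 2.4.6, statsmodels 0.14.6, scipy 1.17.1 and matplotlib 3.10.9 under Python 3.11.15.

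The members, gene families and alternatives were chosen with earlier results of these data known. Named loci were those with the highest lowest percentile over the libraries holding them (10 in all 6 libraries, 6 lost and 6 gained), the 6 farthest from any gene and the 6 gene-free intervals with most far loci. One locus of the farthest set is not reported here.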

Additional observations from a re-analysis of the deposited data

Results flagged for a closer look

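Of 36 measures with 4 shHNRNPU libraries, 3 had 1 library far from the other 3, measured as the gap to the nearest library over the range of the 4. Chance flags about 1 in 20, or 1.8 of 36. For the share of summits outside genes but within 10 kb of one, the quotient was 0.923: shHNRNPU #2 repeat 2, the shortest list, had 25.7% and the other libraries 23.3%, 23.5% and 23.5%. For the share of far summits on chromosome 16 it was 0.934, with 1 library at 2.45% and the others at 2.30%, 2.30% and 2.31%. For the share on chromosome 9 it was 0.88, with 1 library at 3.11% and the others at 3.25%, 3.26% and 3.27%. The far share itself and the number of far summits were not among them.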

How the results depend on the processing

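Of 125 recomputed values, 3 reversed and 30 moved, which are counts that changed by over 1.5 times or shares that left their 95% interval. The other 92 were counts and shares within these limits, or differences and shifts that kept their direction, though not always their size. For tested values only the direction could change, since no p of this design can fall below 0.05. The reversals were of the difference in median percentile of far summits, which became -1.74 with a score of at least 5, -0.880 with lists of one size and -0.277 without shLUC repeat 2 (range without each library -0.277 to 2.26). The far share, the far count, the overlap of pairs and the rank shift kept their direction in every setting run for them. The share difference ranged from -1.03 to -0.793 points without each library. It was -0.412 for summits over 100 kb from a gene and -1.47 over 25 kb. The count difference was -276.5 with a score of at least 5 (exact permutation test, p = 0.267) and -328.75 with lists of one size, and the percentile difference was 3.83 over 100 kb. The rank shift was -3.10 with lists of one size, where that of all loci was 0.465, and -5.72 with matching within 100 bp.

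Lost far loci numbered 393 over 25 kb (10.7%, beside 5.68% over all loci), 91 over 100 kb (13.5%, beside 5.68%), 133 with a score of at least 5 (11.2%, beside 4.94%), 348 and 369 for each hairpin (19.2% and 20.3%, beside 10.4% and 11.9%), and 244 to 978 without each library (13.5% to 30.6%, beside 7.05% to 18.9%). Gained far loci numbered 81 over 25 kb (3.86%, beside 3.59%), 11 over 100 kb (3.11%, beside 3.59%), 55 with protein-coding and lncRNA genes only (3.41%, beside 3.59%) and 20 with absence judged within 1000 bp (2.03%, beside 2.40%). They numbered 179 and 127 for each hairpin (11.8% and 9.41%, beside 10.5% and 7.79%) and 56 to 104 without each library (5.11% to 10.6%, beside 4.84% to 9.62%). The share of far loci in all 6 libraries was 13.5% over 25 kb, 17.6% with a score of at least 5, 15.5% with lists of one size, 6.24% and 14.5% with matching within 100 and 500 bp, and 14.5% to 15.6% without each library, where it is the share in all 5.

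No pairing by repeat number was seen in the ranks of the 823 far loci held by all libraries. Differences between repeats correlated there at -0.0483, -0.00594 and -0.0389 between groups. These ranks cannot show whether the repeats were run as batches. With a replicate block the smallest possible p was 0.222, which the share difference (-0.922) and the count difference (-706.5) both had, and the percentile difference had 0.444 (exact permutation tests).

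The main limits are an unknown depth, far summits with low scores, and 2 control libraries, with which 0.133 is the smallest p. Leaving out intervals over 2 Mb and taking the far share over other sets of summits were added after the data were seen.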
